A study of Mus musculus with 29 samples.

Results

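The genes described here are the subunits of the transcription factor NF-kappaB and the feedback genes that restrain or feed it, measured by RNA-seq in mouse bladder. They are 10 genes, picked out by their symbols from the 35199 in each table. Nfkb1, Nfkb2, Rel, Rela and Relb encode the subunits. Nfkbia, Nfkbiz, Tnfaip3 and Bcl3 encode inhibitors and modulators, and Tnf encodes the cytokine TNF, an activator of the pathway. Gfp+ basal cells were sorted from bladders without BBN, 4 days after tamoxifen, from controls (4 libraries, labelled wild type and given as K5;mTmG in the methods) and from K5VP16;Pparg+/- mutants (5 libraries, K5VP16;Pparg;mTmG in the methods). In the mutants the VP16 activator is fused to Pparg1 in the Rosa26 locus, and Krt5-driven, tamoxifen-inducible Cre switches it on in basal cells and in all cells derived from them. Tumor cells were laser-captured from adult mice given the carcinogen BBN for 5 months, 4 months after tamoxifen, which mutants and controls both received. They comprise basal tumors of controls (3 libraries, labelled wild type, and given in the study's text as VP16;Pparg fl/fl in some places and K5;mTmG in others) and, from K5VP16;Pparg+/- mice, luminal tumors (3 libraries) and the luminal domain (3) and basal-like domain (3) of lesions that held both. The labels do not tie libraries to mice or lesions, so that the p-values below measure only the spread between these libraries.

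NF-kappaB is a family of dimers that wait in the cytoplasm, bound by inhibitors of the IkappaB type. TNF, interleukin-1 and Toll-like receptors act through the IKK kinases, which mark IkappaB alpha for destruction and free dimers such as that of the products of Rela and Nfkb1. Among the first genes these dimers switch on are those of their own inhibitors. The transcript level of Nfkbia or Tnfaip3 is therefore often read beside the activity of the pathway. The activity of the dimers depends mainly on where the proteins sit in the cell, which transcript levels do not show. In a second, slower branch of the pathway the product of Nfkb2 is processed and pairs with the product of Relb. The study dealt with inflammatory signals and immune exclusion in luminal tumors and stained tumors for p65, the product of Rela. It reported p65 in nuclei throughout basal tumors of controls, and hardly any in nuclei of luminal tumors. Nuclear protein is another measure than the transcript levels given here. These comparisons ask how the transcripts of the pathway's own parts stood where Pparg was activated.

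The promoters of the members are shown first, for the letters through which NF-kappaB is known to bind DNA. In the RefSeq promoter table of assembly GRCm38.p6, which spans 250 bases before to 50 after each gene's start, 7 of the 10 members were found, and Nfkb1, Relb and Nfkbiz were not. The kappaB consensus, a motif of 10 bases searched on both strands, matched in 5 of these 7 genes, or 71.4%, and in 2581 of all 27025 genes of the table, or 9.55%. Of all 32851 windows 8.46% held it. A match is a stretch of letters and not a measured site. The sequences below are those of members with a match, 5′ to 3′ on the gene's strand, with the matching bases in capitals. Overlapping matches form 1 stretch in Nfkb2 and Rel. Where the table has several starts, as for Nfkb2 and Tnfaip3, the one with most matches is shown. That of Tnfaip3 has a further match 125 bases before the start, outside the bases printed, and a second start of this gene had 0 matches. That of Nfkb2 has a further match 11 bases before the start, also not printed.

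Nfkbia (IkappaB alpha), chr12:55492648-55492747, minus strand, the 100 bases before the start, with the match beginning 29 bases before it: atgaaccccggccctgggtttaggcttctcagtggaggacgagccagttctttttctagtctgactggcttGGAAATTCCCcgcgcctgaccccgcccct
Tnfaip3 (A20), chr10:19015411-19015510, minus strand, the 100 bases before the start, with a match beginning 12 bases before it: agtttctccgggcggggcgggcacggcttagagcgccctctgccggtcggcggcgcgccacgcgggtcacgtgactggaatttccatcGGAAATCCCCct
Nfkb2 (p100 and p52), chr19:46304688-46304717, plus strand, 30 bases, with overlapping matches from 39 bases before the start: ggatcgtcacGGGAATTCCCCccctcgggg
Rel (c-Rel), chr11:23771042-23771071, minus strand, 30 bases, with the matches beginning 92 bases before the start: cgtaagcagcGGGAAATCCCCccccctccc
Bcl3 (a nuclear IkappaB protein), chr7:19822736-19822765, minus strand, 30 bases, with the match beginning 2 bases after the start: agtcggcggcagGGGAAGTCCCgctgcccg

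No such letters were in the windows of Rela and Tnf. The files hold no measurement of binding at any of these places.

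All values below are normalized counts, as the authors obtained them with DESeq2 from estimated counts. Because each table was scaled on its own, comparisons stay within a table, and because no value is per length, levels are not compared between genes. Differences are on the log2(normalized count + 1) scale, which understates those of low genes. They were tested with limma over all genes with enough counts, with Benjamini-Hochberg adjustment and a threshold of 0.05. How many reads lie behind a value is unknown. Normalized counts summed to between 36520193 and 41435665 per 4-day library and to between 41697178 and 53904714 per tumor or domain library. Values after ± are SDs over the libraries of a group. Libraries are called by the names of their columns (CT074 and so on).

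The cells were checked against marker lists. The 14 urothelial and epithelial markers were measured in every group, with summed levels from 608243 to 1247723 normalized counts in the 4-day libraries and from 326682 to 1306198 in the table with whole luminal tumors. Between mutants and controls at 4 days 10 of these 14 were higher and 4 lower, with 6 at an unadjusted p under 0.05 and 1 called. This was Epcam, which encodes an epithelial adhesion molecule, at 12502.5 ± 339 normalized counts in the 4 controls and 7684 ± 1244 in the 5 mutants without overlap (log2 fold change -0.72, SE 0.12, limma adjusted p = 0.0189). It was not called without CT065, CT066 or CT067, without both CT074 and CT076, or in the table of 3 against 3 libraries, with limma adjusted p from 0.0511 to 0.0806. With a covariate for the Y-linked genes below the fold change was -0.77. At 4 days, the 12 fibroblast and muscle markers were all higher in mutants, with a median log2 fold change of 2.02, 9 at an unadjusted p under 0.05 and 1 called, and with sums of 11856 to 85756 in controls and 31073 to 219174 in mutants. The 24 leukocyte markers, 21 of them tested, divided into 10 higher and 11 lower, with 0 called by limma and 3 at an unadjusted p under 0.05. Their sums were 2717 to 4596 in controls and 2191 to 25185 in mutants, where CT074 (25185) and CT076 (15264) stood above the rest. By the mean of log2 levels over the list, which gives each marker equal weight, CT078 was highest (5.96), followed by CT074 (5.85) and CT076 (5.51). For fibroblast and muscle markers that mean was highest in CT074 (10.8) and CT070 (10.3), then CT076 (9.84). The gate for Gfp+ cells is meant to remove leukocytes and fibroblasts that do not descend from Krt5-expressing cells. How far it did so was not tested. A score of Y-linked genes was high in 3 controls and low in the remaining control, CT063, and in all 5 mutants, so it divided the libraries nearly as the genotype did. With this class as a covariate, the genotype difference is that of CT063 alone against the mutants. Only fold changes are given for that fit, and no call is drawn from it. In bulk samples such as these, fewer cells of a type and less RNA per cell cannot be told apart.

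At 4 days, no tested member differed between mutants and controls past the threshold. Of the 10 members 9 had enough counts to be tested, and 0 were called, where 467 of 16413 genes (2.85%) were called, 290 of them higher and 177 lower in mutants (270 and 287 with quantile normalization). At an unadjusted p under 0.05, 1 member (Nfkb1) and 20.8% of all genes passed. The members' log2 fold changes were positive in 6 and negative in 3, with a median of 0.27, beside 0.00455 over all genes tested. This division moved to 3 positive and 6 negative without the libraries CT074 and CT076. With the class of Y-linked expression as a covariate, which sets CT063 alone against the mutants, it was 8 positive and 1 negative. Groups overlapped in all 9, while 9.18% of all genes had groups that did not overlap.

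**Figure D1:**
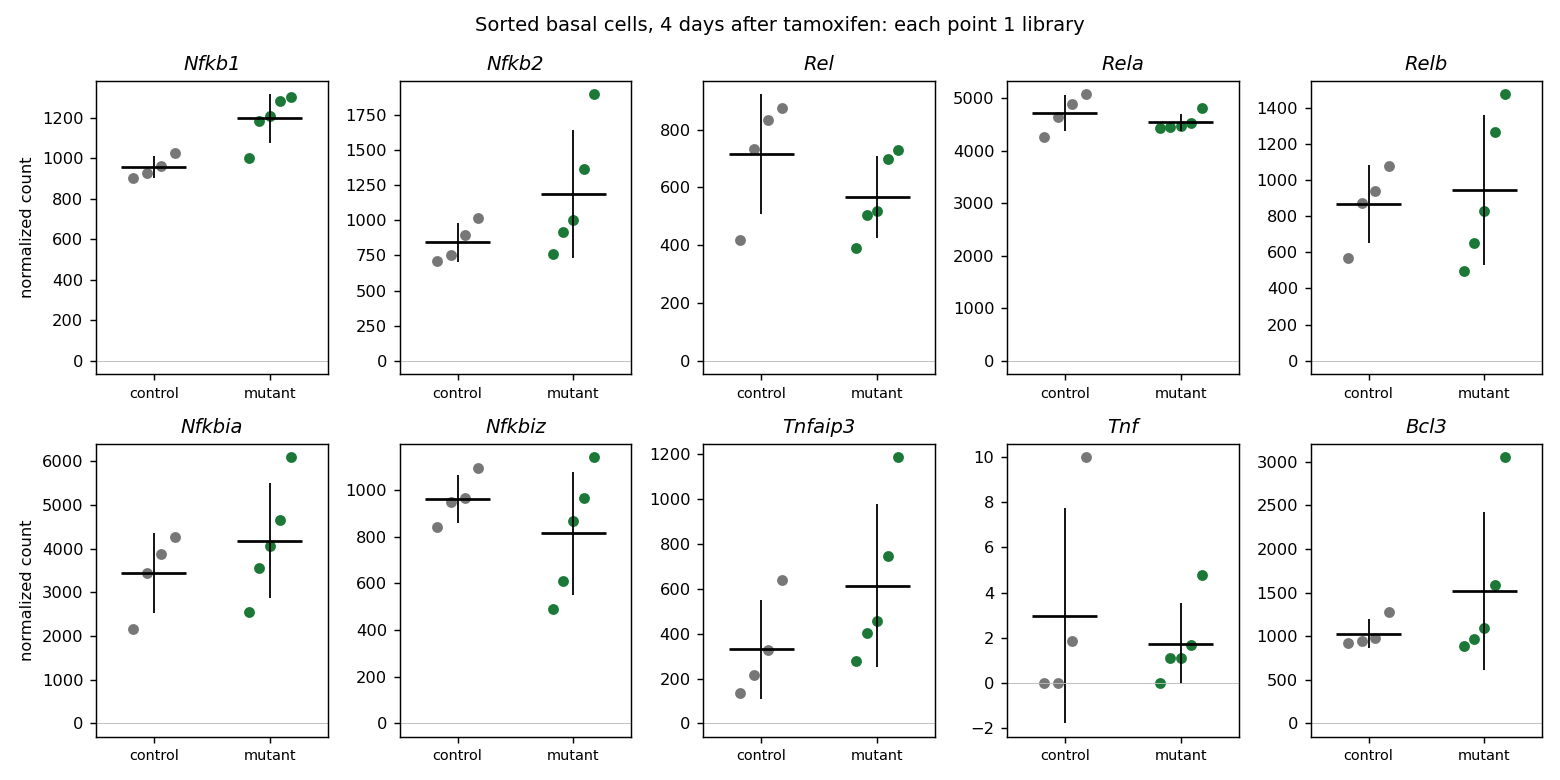
Normalized counts of the 10 members (vertical axes, 1 scale per gene) in the sorted basal cells of 4 controls and 5 K5VP16;Pparg mutants. Points are libraries, horizontal lines group means and vertical lines 1 SD either side. The highest mutant point is CT074 in Nfkb2 (1897), Relb (1473), Nfkbia (6093) and Tnfaip3 (1188), and CT076 in Bcl3 (3053).

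Among the subunits, Nfkb1, which encodes p105 and its product p50, came nearest to a call. Its normalized counts were 930, 903, 1029 and 962 in controls and 1003, 1185, 1211, 1286 and 1302 in mutants. A single mutant, at 1003, lay below the highest control. The log2 fold change was 0.32 (SE 0.11, 95% interval 0.08 to 0.56, limma adjusted p = 0.126). With limma's array weights, which give less weight to libraries far from their group, it was 0.37 and was called (limma adjusted p = 0.0441), while over the fits that each left out 1 library the limma adjusted p ranged from 0.0783 to 0.289.

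Rela, which encodes p65, the subunit that carries the main activation domain, was the most tightly measured member. Its counts were 4273, 5076, 4650 and 4891 in controls and 4429, 4526, 4812, 4482 and 4459 in mutants. The mutants lay within the range of the controls. The log2 fold change of -0.05 had an interval of -0.23 to 0.12, so differences of more than 0.23 in either direction lay outside it (limma adjusted p = 0.733). With the Y-linked class as a covariate, that is against CT063 alone, it turned to 0.087.

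The other subunits had wider spreads. Nfkb2 was at 756, 707, 894 and 1017 in controls and at 1000, 761, 1897, 1363 and 917 in mutants (log2 fold change 0.43, 95% interval -0.13 to 0.99, limma adjusted p = 0.364). Relb, its partner in the slower branch, was at 571, 940, 873 and 1079 in controls and at 652, 497, 1473, 1267 and 830 in mutants (log2 fold change 0.05, 95% interval -0.67 to 0.77, limma adjusted p = 0.950, and 0.61 with the Y-linked covariate, against CT063 alone). In both genes 2 mutant libraries, CT074 and CT076, lay above every control, and the lowest mutants lay among or below the controls. Rel, which encodes the c-Rel subunit best known from lymphocytes, was at 418, 734, 875 and 833 in controls and at 696, 728, 391, 504 and 519 in mutants (log2 fold change -0.31, 95% interval -0.89 to 0.26, limma adjusted p = 0.528). Here CT074 was the lowest library of all. With the Y-linked covariate, again against CT063 alone, the fold change turned to 0.40.

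The feedback inhibitors showed the same division among mutants. Nfkbia, which encodes IkappaB alpha, was at 2166, 3874, 3439 and 4264 normalized counts in controls and at 3553, 2560, 6093, 4660 and 4053 in mutants. The 2 highest values were those of CT074 and CT076, and CT063 was the lowest. On the log2 scale the fold change was 0.27 (SE 0.26, 95% interval -0.31 to 0.85, limma adjusted p = 0.595), and 0.064 without CT063 or 0.12 without CT074. Tnfaip3, which encodes the ubiquitin-editing enzyme A20, had the largest fold change of the members tested at 4 days, 0.94 (SE 0.50, 95% interval -0.18 to 2.06, limma adjusted p = 0.324). Its counts were 135, 218, 330 and 641 in controls and 405, 277, 1188, 747 and 457 in mutants, so the groups overlapped widely. Without CT063 the fold change was 0.59, without CT074 it was 0.65, and without CT067 it was 1.33. With the Y-linked covariate it was 1.99, and that of Nfkbia was 0.89. Both set the mutants against CT063 alone, the lowest control in these 2 genes.

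Nfkbiz and Bcl3 encode nuclear proteins of the IkappaB type that bind p50 or p52 on DNA and can activate or repress target genes. Nfkbiz was at 841, 946, 1093 and 967 in controls and at 608, 491, 1140, 966 and 865 in mutants (log2 fold change -0.30, 95% interval -0.82 to 0.22, limma adjusted p = 0.506). Both the lowest libraries and the highest one were mutants. Bcl3 was at 948, 1272, 980 and 925 in controls and at 883, 967, 1586, 3053 and 1097 in mutants (log2 fold change 0.40, 95% interval -0.33 to 1.14, limma adjusted p = 0.524, and 0.11 without CT076). Tnf itself was nearly absent from the sorted cells, at 10, 0, 0 and 2 in controls and at 2, 1, 5, 0 and 1 in mutants, and was not tested.

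By summed counts, though not by mean log2 levels, CT074 and CT076 are the mutant libraries with the most of both leukocyte markers and fibroblast and muscle markers (219174 and 129821 for the latter). When both were left out, which was chosen after seeing the data, 0 members were again called and 289 genes in all. The log2 fold changes of Nfkbia, Relb and Bcl3 turned to -0.0012, -0.38 and -0.06, those of Nfkb2 and Tnfaip3 were 0.09 and 0.40, and that of Nfkb1 was 0.28 (limma adjusted p = 0.262). The part of other cell types in the spread of these genes was not tested.

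Around the members, the pathway was read from gene lists. Of 22 receptors and adaptors all were tested, 15 were higher and 7 lower in mutants, and limma called 0, with 6 at an unadjusted p under 0.05. Of 17 kinases and kinase regulators 6 were higher and 11 lower, with 0 called and 3 at that unadjusted p. Among 20 other inhibitors 12 were higher and 8 lower, with 6 at that unadjusted p and 1 called. This was Zc3h12a, which encodes regnase-1, an RNase that degrades inflammatory mRNAs. It averaged 285 ± 31.8 normalized counts in the 4 controls and 506 ± 67.3 in the 5 mutants, a rise of 0.82 on the log2 scale (SE 0.15, limma adjusted p = 0.0229), and the groups did not overlap. It was not called without CT066, CT067 or CT074, where the limma adjusted p was 0.0807, 0.0696 and 0.0577. Zc3h12a was also not called in quantile-normalized values (limma adjusted p = 0.0546), in the table of 3 against 3 libraries (0.109) or without both CT074 and CT076 (0.053). With the Y-linked class as a covariate, against CT063 alone, its fold change was 0.83.

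Of 36 target genes 29 were tested, 22 higher and 7 lower, with a median of 0.29, and 12 had an unadjusted p under 0.05. The 1 that was called was Cxcl5, a chemokine that attracts neutrophils, at 16.3 ± 8.43 normalized counts in the controls and 441 ± 481 in the mutants (log2 fold change 3.96, SE 0.89, limma adjusted p = 0.0461). The SD of the mutants exceeded their mean, and leaving out any single library other than CT071 ended the call, with limma adjusted p up to 0.123. So did dropping the filter (limma adjusted p = 0.0519) or the trend (0.0736), the table of 3 against 3 libraries (0.175) and leaving out both CT074 and CT076 (0.0921). With the Y-linked covariate, against CT063 alone, the fold change was 3.68. Among 18 early response genes, which many stimuli switch on quickly, 17 were higher in mutants and 1 lower, with a median of 0.50. Of these, 5 had an unadjusted p under 0.05. Egr1 alone was called, at 369 ± 440 normalized counts in controls and 2264.5 ± 1287 in mutants (log2 fold change 3.12, limma adjusted p = 0.0417), with overlapping groups. It stayed called without CT067 or CT071, and not without any other single library, where the limma adjusted p reached 0.128. It was not called without the trend (limma adjusted p = 0.0713), in the table of 3 against 3 libraries (0.185) or without both CT074 and CT076 (0.105). With the Y-linked covariate, against CT063 alone, its fold change was 4.65.

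**Figure D2:**
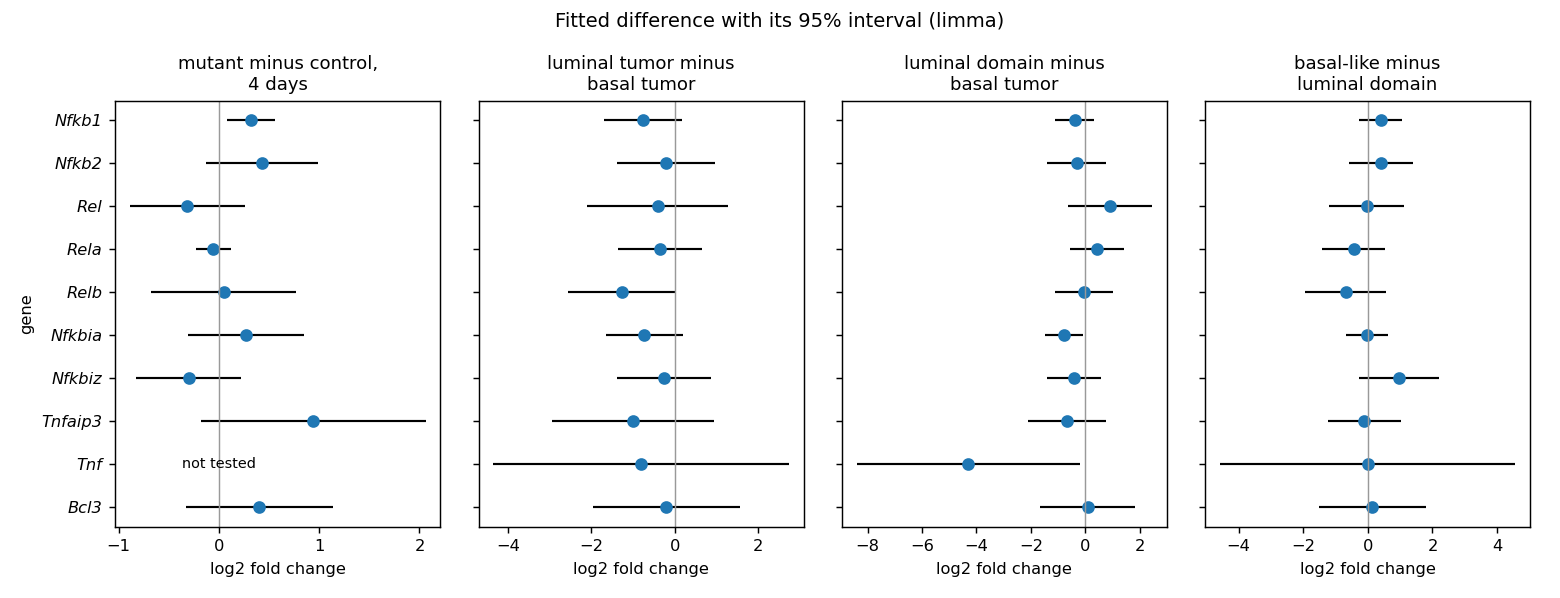
Fitted log2 fold change of each member (horizontal axes, scales differ between panels) with its 95% interval from limma, for the 4 comparisons. Every point is blue, the color of genes not called. The interval of Nfkb1 at 4 days, and those of Nfkbia and Tnf between the luminal domain and basal tumors, lie to 1 side of 0.

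In whole luminal tumors no member differed from basal tumors beyond the spread between libraries. All 10 had lower mean log2 levels there, a direction that turned for 3 of them when 1 library was left out, for Bcl3 without CT115 (0.24) or CT132 (0.31), for Nfkbiz without CT132 (0.016) and for Rel without CT113 (0.067). Rel was also at 0.034 with the 5 luminal libraries as 1 group. Of the 10 members tested, 0 were called, where 372 of 14631 genes (2.54%) were called, 203 higher and 169 lower in luminal tumors, a division that was 64 and 18 without the filter and 66 and 124 without the trend. No member had an unadjusted p under 0.05, which 18.5% of all genes had. The members' log2 fold changes ran from -1.27 to -0.20 with a median of -0.57, beside -0.10 over all genes tested, and without a sign the median size was 0.57, beside 0.78 over all genes. Groups did not overlap in 1 member, Relb, while they did not overlap in 21.8% of all genes. The 6 libraries were fitted with 2 luminal domain libraries of the same table, which entered for the shared spread.

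**Figure D3:**
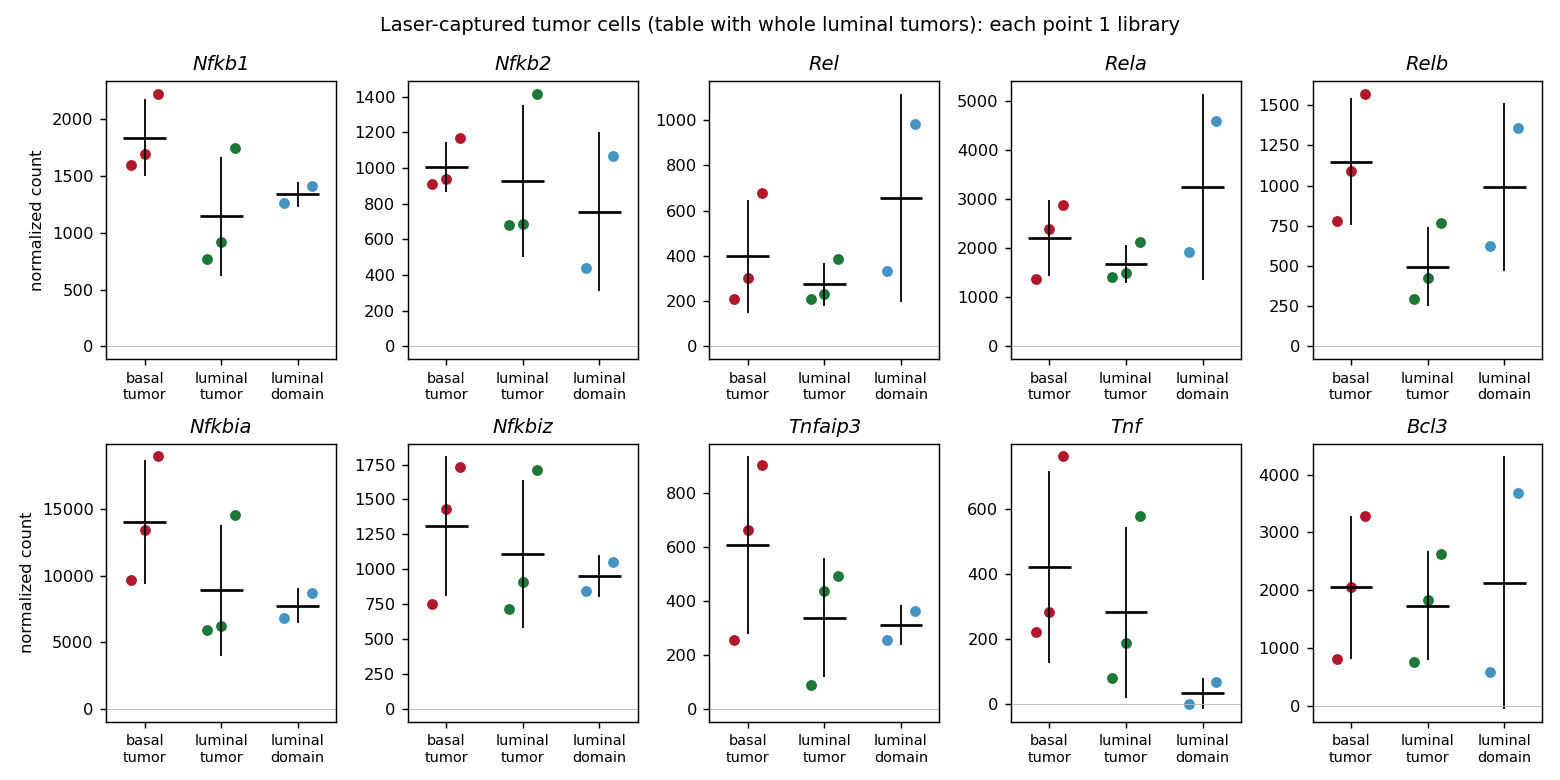
Normalized counts of the 10 members (vertical axes, 1 scale per gene) in 3 basal tumors, 3 luminal tumors and 2 luminal domains of 1 table. Points are libraries, horizontal lines means and vertical lines 1 SD either side. Relb separates basal tumors (783 to 1572) from luminal tumors (293 to 769), and the other members overlap.

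Relb was at 783, 1094 and 1572 normalized counts in basal tumors, at 424, 769 and 293 in luminal tumors and at 624 and 1360 in the luminal domains. The luminal tumors lay below the basal ones by a gap of few counts, between 769 and 783, and 1 luminal domain lay within the basal range. Between luminal and basal tumors the fold change was -1.27 on the log2 scale (SE 0.57, 95% interval -2.55 to 0.01, limma adjusted p = 0.275), and from -1.64 to -0.95 without each library in turn.

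Nfkb1 was at 1593, 1694 and 2222 in basal tumors and at 1744, 769 and 914 in luminal tumors (log2 fold change -0.76, 95% interval -1.70 to 0.18, limma adjusted p = 0.375). In CT126 it was as high as in the basal tumors. Rela was at 1369, 2396 and 2887 in basal tumors, at 1416, 2117 and 1486 in luminal tumors and at 1913 and 4593 in the luminal domains, and its interval ran from -1.37 to 0.65. Its order by mean, luminal domain, basal tumor and luminal tumor, held no neighbours that differed beyond their spread. Nfkb2 was at 940, 1167 and 912 in basal and at 687, 1417 and 678 in luminal tumors, and Rel at 302, 679 and 211 in basal and 385, 208 and 230 in luminal tumors. Their log2 fold changes were -0.20 and -0.41, with limma adjusted p of 0.872 and 0.814.

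Among the inhibitors, Nfkbia was at 18958, 13452 and 9712 normalized counts in basal tumors and at 6261, 5918 and 14595 in luminal tumors. Both luminal domains, at 6826 and 8698, lay below every basal tumor, as did all luminal tumors but CT140. On the log2 scale luminal and basal tumors differed by -0.73 (SE 0.41, 95% interval -1.66 to 0.19, limma adjusted p = 0.386). Nfkbiz was at 1732, 1435 and 754 in basal and 907, 713 and 1714 in luminal tumors (log2 fold change -0.25, 95% interval -1.38 to 0.88). Here too CT140 was the single luminal library near the top of the basal range. Tnfaip3 was at 254, 904 and 661 in basal and at 88, 435 and 492 in luminal tumors (log2 fold change -1.00, 95% interval -2.94 to 0.94, limma adjusted p = 0.582). Without CT126, its lowest library, the fold change was -0.21, and over the other libraries left out in turn it reached -1.53.

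Bcl3 was at 824, 2059 and 3289 in basal and at 1837, 760 and 2620 in luminal tumors (log2 fold change -0.20, 95% interval -1.96 to 1.56). Tnf, at the noise level in the sorted cells, was measured in the captured tumors. It was at 760, 283 and 221 normalized counts in basal tumors, at 80, 188 and 579 in luminal tumors and at 0 and 68 in the luminal domains. The highest luminal tumor was again CT140, and the log2 fold change was -0.81 with an interval of -4.36 to 2.74 (limma adjusted p = 0.824). It was -0.13 without CT126, -0.27 without CT111 and -1.55 without CT140. The library CT140 was thus the highest luminal tumor in Nfkbia, Nfkbiz, Tnfaip3, Tnf and Bcl3 and the lowest in Relb. It also held the most fibroblast and muscle marker counts (18378) among the luminal tumors. Its leukocyte marker counts (35673) were the highest too, but close to those of CT126 (33389), the lowest luminal tumor in Tnfaip3 and Tnf.

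Of 22 leukocyte markers tested 21 were lower in luminal tumors, 0 of them called by limma and 7 of the list at an unadjusted p under 0.05, with sums of 57644 to 200990 normalized counts in basal and 2566 to 35673 in luminal tumors. All 11 fibroblast and muscle markers tested were lower, 6 of them called, with sums of 51006 to 110132 and of 362 to 18378. All 5 endothelial markers tested were lower, with a median of -3.65, 0 called by limma, 3 at an unadjusted p under 0.05 and 3 without overlap, and with sums of 1762 to 3722 and of 374 to 1831. Of 14 urothelial and epithelial markers 10 were higher, 6 of them called (Upk1a, Upk2, Upk3a, Pparg, Krt8 and Krt19). This list joins basal and luminal genes with Pparg itself, so it does not measure epithelial content alone. The part of the cell types of these lists in the members' lower levels was not tested.

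Of the 35 target genes tested, 11 were higher and 24 lower in luminal tumors, with a median of -1.79, and 2 were called, 1 in each direction. At an unadjusted p under 0.05 there were 10, and groups did not overlap in 11. Ccl2, the chemokine that draws monocytes, fell from 1951 ± 1194 to 11.6 ± 16.4 normalized counts, with 3 libraries in each group (log2 fold change -8.31, SE 1.36, limma adjusted p = 0.0265), without overlap. With luminal levels so near 0 this size depends on the pseudocount and was -7.21 with a pseudocount of 5, and without each library in turn it ran from -9.56 to -7.07. Tnfaip2, a TNF-inducible gene of membrane tube formation that is also known from epithelia, rose from 2820 ± 731 to 19879 ± 7329 (log2 fold change 2.77, SE 0.37, limma adjusted p = 0.0183), without overlap. Ccl2 was not called without CT111, CT115, CT126 or CT132 (limma adjusted p from 0.0692 to 0.0932), and Tnfaip2 was not called without CT111, CT126 or CT132 (limma adjusted p from 0.076 to 0.082). Receptors and adaptors divided into 12 higher and 10 lower, kinases and their regulators into 7 and 10, other inhibitors into 9 and 11, and early response genes into 9 and 9. None of these 4 lists held a gene called by limma, and at an unadjusted p under 0.05 they held 2, 2, 1 and 2.

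In the luminal domains of mixed lesions, compared with the same 3 basal tumors in a separate table, Nfkbia and Tnf were the members with the smallest unadjusted p. Again 0 of 10 members were called, where 377 of 14921 genes (2.53%) were called, 254 higher and 123 lower (179 and 134 with upper-quartile scaling). At an unadjusted p under 0.05, 2 members (Nfkbia and Tnf) and 20.6% of all genes passed. Groups did not overlap in 3 members, Nfkb1, Nfkbia and Tnf, and in 26.8% of all genes. The members' median was -0.35, with 3 higher and 7 lower, beside 0.00973 over all genes. This comparison shares its basal tumors, and 2 of its luminal domains, with the table above, so it is not a second test of the same difference.

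Nfkbia was at 20361, 14166 and 10313 normalized counts in basal tumors and at 7439, 9603 and 8391 in luminal domains. All domains lay below all basal tumors, by a gap from 9603 to 10313, and they were closer to one another than the basal tumors were. The domains differed from the basal tumors by -0.77 on the log2 scale (SE 0.31, 95% interval -1.48 to -0.06, limma adjusted p = 0.211), and lay from -1.01 to -0.52 without each library in turn. Over those fits the limma adjusted p ranged from 0.139 to 0.431.

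Tnf was at 800, 292 and 230 in basal tumors and at 0, 74 and 94 in luminal domains. No domain reached the lowest basal tumor. Its log2 fold change was -4.30 (SE 1.78, 95% interval -8.41 to -0.19, limma adjusted p = 0.225) and rested on CT128, the library listed at 0. Without it the fold change was -2.17 (limma adjusted p = 0.321), and with a pseudocount of 5 it was -3.50. Nfkb1 was at 1769, 1845 and 2441 in basal tumors and at 1421, 1612 and 1535 in the domains, a log2 fold change of -0.39 (95% interval -1.10 to 0.31, limma adjusted p = 0.515) without overlap.

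Rel, Rela and Bcl3 had positive fold changes, of which that of Bcl3 turned with the processing. Rel was at 318, 703 and 220 in basal tumors and at 1051, 359 and 860 in the domains (0.91 on the log2 scale, 95% interval -0.65 to 2.46, limma adjusted p = 0.494). Rela was at 1443, 2477 and 3009 against 2047, 4977 and 2603 (0.43, 95% interval -0.57 to 1.44, and 0.064 without CT143). In both genes the groups overlapped. Bcl3 spanned 887 to 3503 in basal tumors and 646 to 4069 in the domains, and its fold change was 0.09, which turned negative in 3 of 6 fits without 1 library (from -0.46 to 0.90 over all 6) and with quantile normalization (-0.044) or upper-quartile scaling (-0.064). Relb, lower in whole luminal tumors by its mean, was at 855, 1171 and 1697 in basal tumors and at 691, 1525 and 1491 in the domains (-0.04, 95% interval -1.11 to 1.04). Nfkb2, Nfkbiz and Tnfaip3 had log2 fold changes of -0.31, -0.41 and -0.66, with limma adjusted p of 0.751, 0.638 and 0.596.

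Among the lists, Tnfaip2 was the single target gene called, at 3040 ± 769 normalized counts in basal tumors and 11589.6 ± 2779 in the domains, and higher in all 3 of them (log2 fold change 1.93, SE 0.32, limma adjusted p = 0.0311). Of the single libraries, CT113 alone could be left out with the call kept, the limma adjusted p reaching 0.138 without CT143. With limma it was not called without the trend (adjusted p = 0.110) or the filter (adjusted p = 0.0505). Of 35 target genes tested 14 were higher and 21 lower, with a median of -0.98, 12 had an unadjusted p under 0.05 and 11 had groups that did not overlap. Receptors and adaptors divided into 12 higher and 10 lower, kinases and regulators into 10 and 7, other inhibitors into 9 and 11 and early response genes into 13 and 5, with 0 called by limma and 6, 1, 3 and 4 at an unadjusted p under 0.05. Leukocyte marker sums were 60445 to 211562 in basal tumors and 30129 to 69458 in the domains, with 17 of 22 markers lower, 0 called and 6 at that unadjusted p. For fibroblast and muscle markers the sums were 52785 to 116727 and 6845 to 33578, with 12 of 12 lower and 3 called. Of 6 endothelial markers 4 were higher and 2 lower in the domains, with a median of 0.23 and 0 called by limma. Their sums were 1904 to 3857 in basal tumors and 1884 to 3972 in the domains. The part of these cells in the lower Nfkbia and Tnf was not tested.

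Within mixed lesions, no member passed the threshold between the basal-like and the luminal domain, unpaired or with the domains taken as pairs. Unpaired, of the 10 members 0 were called, 0 had an unadjusted p under 0.05 and 0 had groups that did not overlap. Of all 14874 genes tested 0 (0%) were called by limma, or 20 without the trend, while 5.09% had an unadjusted p under 0.05 and 10.8% had groups that did not overlap. The luminal domains are those of the comparison above. Fold changes below are basal-like minus luminal domain. The labels give both domains replicate numbers but do not say whether a shared number means 1 lesion. The column numbers run on from one domain to the other (CT128 and CT129, CT143 and CT144, CT148 and CT149), and such libraries deviated together. With these taken as pairs, which is an assumption made after the data were seen, 1 of all genes was called by limma in place of 0 (Ctse, which encodes the protease cathepsin E, log2 fold change -3.29, limma adjusted p = 0.0358), and 12.5% had an unadjusted p under 0.05. Of the members 0 were called and 0 had an unadjusted p under 0.05, the smallest limma adjusted p being 0.403, that of Rela.

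**Figure D4:**
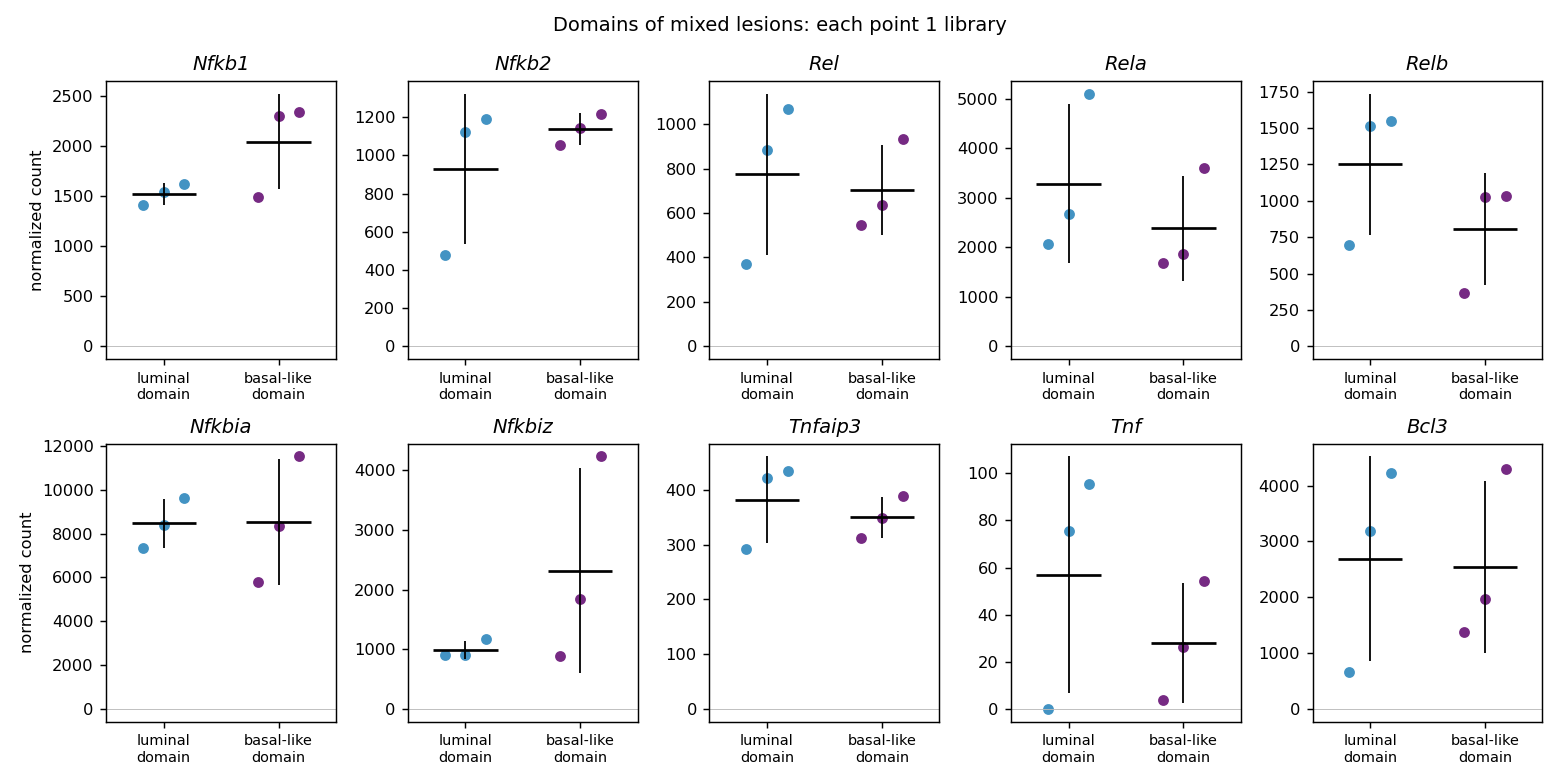
Normalized counts of the 10 members (vertical axes, 1 scale per gene) in 3 libraries of the luminal domain and 3 of the basal-like domain. Points are libraries, horizontal lines means and vertical lines 1 SD either side. The groups overlap in all 10 genes, and in Nfkbiz the basal-like domains run from 890 to 4236.

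Nfkbiz had the largest fold change, 0.95 (SE 0.54, 95% interval -0.29 to 2.19, limma adjusted p = 0.935). It was at 911, 1168 and 899 normalized counts in luminal domains and at 4236, 1839 and 890 in basal-like domains, so that 2 basal-like domains lay above all luminal ones and 1 below them. CT129, the highest, also held the most fibroblast and muscle marker counts of the 6 libraries, 111129 against 7091 to 34619 in the luminal domains, where 10 of 11 of these markers were higher in basal-like domains and 0 were called. The part of these cells was not tested. Without CT129 the fold change was 0.38. Relb had the largest negative one, -0.69 (95% interval -1.93 to 0.56, and -0.19 without CT149), at 694, 1550 and 1513 against 1027, 1035 and 366. The lowest library in Relb, CT149, was the highest in Nfkbia.

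Nfkb1 was at 1406, 1617 and 1537 in luminal and at 1492, 2340 and 2297 in basal-like domains (0.40, 95% interval -0.26 to 1.06). It was higher in the basal-like domain of all 3 assumed pairs, where the interval was -0.14 to 0.94 (limma adjusted p = 0.512). Nfkbia was at 7364, 9628 and 8406 and at 5782, 8333 and 11522, a fold change of -0.03 with an interval of -0.69 to 0.62 on the log2 scale. Rela was at 2072, 5104 and 2667 and at 1685, 3604 and 1867 (-0.44, 95% interval -1.42 to 0.54, and -0.065 without CT143). It was lower in the basal-like domain of all 3 assumed pairs, with CT143 and CT144 highest in their groups, and the paired interval was -0.88 to 0.0042 (limma adjusted p = 0.403). For Nfkbiz the paired interval was -0.07 to 1.98 (limma adjusted p = 0.427). Nfkb2, Rel, Tnfaip3 and Bcl3 had fold changes of 0.40, -0.04, -0.11 and 0.13. Tnf was low in both domains, at 0, 75 and 95 and at 26, 54 and 4, and its interval of -4.59 to 4.57 sets no useful limit.

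No gene of the pathway lists was called by limma between the domains. Target genes divided into 18 higher and 16 lower in basal-like domains (5 at an unadjusted p under 0.05), receptors and adaptors into 10 and 12 (0), kinases and regulators into 9 and 8 (0), other inhibitors into 12 and 8 (2), and early response genes into 4 and 14 (0). Leukocyte marker sums were 30368 to 70552 normalized counts in luminal and 31704 to 121441 in basal-like domains, with 16 of 22 markers higher, and the B cell marker Cd79a was listed at 0 in all 6 libraries.

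Across libraries, some members went up and down with Nfkbia. Correlations were taken on the log2 scale, as 17 relations in all, chosen after the values were seen. Each p is from a permutation of libraries across groups and, after such a choice, serves as a description only. Genes outside the members, picked for their likeness, reached such values too. At 4 days r with Nfkbia was 0.95 for Cavin3 and 0.94 for Chil1. The share of all genes that go with Nfkbia as closely was not counted. Over the 9 libraries at 4 days, Nfkbia went with Relb (Pearson's r = 0.92, permutation p = 0.000394, adjusted 0.0067, and Spearman's rho = 0.90, permutation p = 0.00203, adjusted 0.0172). Without the 2 libraries farthest from the median of Nfkbia r was again 0.92, and within the groups, after taking off each group's mean, it was 0.96. Each group alone has fewer than 6 libraries, too few for a value of its own. Nfkbia also went with Tnfaip3 (r = 0.89, permutation p = 0.00157, adjusted 0.0133, and rho = 0.90, adjusted 0.0172, and r = 0.67 without those 2 libraries and 0.90 within groups). For Nfkb2 r was 0.81 (permutation p = 0.0096, adjusted 0.0408, and rho = 0.80, permutation p = 0.0138, adjusted 0.0654) and 0.64 without them, so its relation rests in part on those libraries. For Rel r was -0.17 (permutation p = 0.666).

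In the 8 libraries of the tumor table the relation with Relb was near 0 (r = 0.0038, permutation p = 0.993, and rho = 0.14, permutation p = 0.752). After taking off each group's mean r was -0.62. Without the 2 farthest libraries, and with no group mean taken off, it was 0.69. The sign of this relation thus depended on how it was taken. There Nfkbia went with Nfkbiz (r = 0.89, permutation p = 0.00627, adjusted 0.0356, and rho = 0.83, permutation p = 0.0154, adjusted 0.0654), with r = 0.74 without the 2 farthest libraries and 0.95 within groups. With Tnf r was 0.61 (permutation p = 0.0803, adjusted 0.255, and rho = 0.79, permutation p = 0.0279, adjusted 0.095), with r = 0.39 without the 2 farthest libraries and 0.60 within groups. At 4 days r with Nfkbiz was 0.59 (permutation p = 0.09, adjusted 0.255), 0.74 without the 2 farthest libraries and 0.83 within groups. Over the tumor libraries r was 0.39 with Tnfaip3 (permutation p = 0.352) and 0.11 with Nfkb2 (permutation p = 0.791). The difference between the tables was not tested. At 4 days the libraries high in these genes, CT074 and CT076, are those with the highest summed counts of leukocyte and of fibroblast and muscle markers, but not the 2 highest by mean log2 levels, where CT078 and CT070 stand among them. For fibroblast and muscle markers the sums were lowest in CT063 (11856) and highest in CT067 (85756) among controls, as were Nfkbia, Relb and Tnfaip3. Among mutants CT071 was lowest in that sum (31073) and in these genes. CT070 (87247) lay above CT078 (67582) in that sum and below it in these genes. For leukocyte markers the lowest sums were those of CT065 (2717) among controls and CT070 (2191) among mutants. The part of those cells was not tested.

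**Figure D5:**
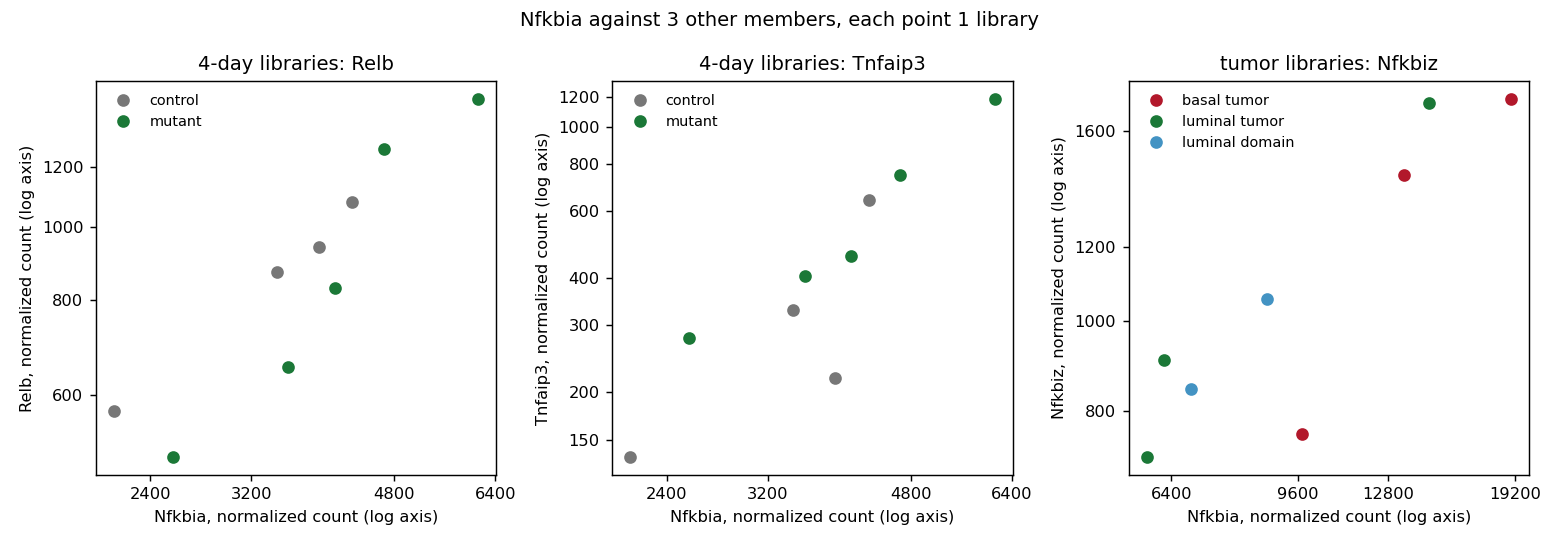
Nfkbia (horizontal axes) against Relb and Tnfaip3 in the 9 4-day libraries and against Nfkbiz in the 8 libraries of the tumor table (vertical axes), all in normalized counts on log axes. Each point is 1 library, colored by group. Pearson's r on the log2 scale is 0.92, 0.89 and 0.89, and control and mutant points of Relb are interspersed along the horizontal axis.

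The genes whose pattern was most like that of Nfkbia, by the mean of Pearson's r over the 9 4-day and the 8 tumor libraries among 11075 genes, were Cmtm7 (0.89), Chil1 (0.88), Cavin3 (0.88), Tm4sf1 (0.87) and Tnfrsf1b (0.87), the last encoding the second TNF receptor. Those most like Rela were Pnrc1 (0.82), Smad1 (0.77), Spef1 (0.75), Lpin2 (0.74) and Oaz2 (0.72). No member was among them. These are the highest of many values over few libraries, given as a description.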

How the data were processed

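RNA was made into libraries with SMART-Seq v4 and Nextera XT. The authors quantified reads with kallisto 0.44.0, summed them to genes with tximport and scaled every table separately in DESeq2 1.18. The deposited values are the resulting signal, normalized counts with factors that differ between genes, so that whole reads, and the depth, could not be recovered. The sources used here name the assemblies GRCm38 and GRCh38, without a release of the transcript set. The deposited comparisons of the authors (fold changes and p-values) were not used. A table of 8 columns, with and without BBN for 1 month, is not analysed here, since nothing said which columns were treated. Column names give no group and no replicate number, so groups were inferred. At 4 days the set of 4 columns was taken as the controls, since the labels give 4 controls and 5 mutants. Tumor and domain columns were matched by which tables the description of each group names. Domains with consecutive column numbers were taken as pairs in an alternative, since their deviations from the group means correlated over 14874 genes (r = 0.36, 0.35 and 0.33 in the 3 pairs, below 0 in all other combinations). The source of this pairing is the column names and the values. The labels of both domains carry replicate numbers too, but columns could not be matched to single labels.

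A gene was tested where the number of libraries with 10 or more normalized counts reached the size of the smaller group. The test was that of limma 3.58.1 in R 4.3.3, with a trend in eBayes and no covariates, on log2(normalized count + 1). Genes were called at a Benjamini-Hochberg adjusted p under 0.05. The code was tested on simulated data. Correlations, motifs and figures were made with Python 3.11.15, pandas 2.3.3, scipy 1.17.1 and matplotlib 3.10.9. The genes named are all members, up to 10 called genes of the pathway lists in each comparison, and the 5 genes most like Rela and Nfkbia among those averaging 100 or more normalized counts. Epcam, Ctse and the 6 urothelial and epithelial markers called in luminal tumors fall outside this rule and were named after their values were seen. Members and lists were chosen with earlier results of these data known. Alternatives were other pseudocounts, filters, scalings, weights and tables, a Y-linked covariate, a block by assumed pairs of domains and each library left out.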

Additional observations from a re-analysis of the deposited data

Results flagged for a closer look

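A library far from the others was sought by Dixon's criterion for each of the 10 members in the 4 controls and in the 5 mutants at 4 days. Of these 20 sets of values 2 had one, where chance alone gives about 1 in 20. The sets share their libraries, so they are not independent. Bcl3 was at 1272.3 normalized counts in the control library CT065 at 4 days, while the other controls lay between 925 and 980. Rela was at 4812.23 normalized counts in the mutant library CT074, while the other mutants lay between 4429 and 4526.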

How the results depend on the processing

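Over the alternatives other than leaving out single libraries, 275 of 291 values of members kept their direction and their side of the threshold, 15 reversed and 1 passed the threshold, that of Nfkb1 at 4 days with array weights. Values with the Y-linked covariate are among these, and only their direction is read. Apart from that fit, no member was called under any other setting or without any single library. Counts of called genes at 4 days (467) became 269 without the trend, 1054 with array weights (where 1 member was called), 147 in the table of 3 against 3 libraries, 26 with the Y-linked class as a covariate and 289 without CT074 and CT076. For luminal against basal tumors (372) they became 82 without the filter, 190 without the trend and 142 with 6 libraries in the fit. For the luminal domain against basal tumors (377) they became 144 without the filter and 107 without the trend, and for the domains (0) 20 without the trend and 1 with a replicate block by consecutive column numbers, which changed no member's call. Without each library in turn the counts ranged from 129 (without CT066) to 596 at 4 days, and were 154, 169, 311 and 228 without CT065, CT067, CT070 and CT074. In luminal tumors they ranged from 3 (without CT126 or CT132) to 863 (without CT140), and were 14, 243 and 167 without CT111, CT113 and CT115. In the luminal domain they ranged from 0 (without CT128 or CT143) to 467, and were 22, 160 and 3 without CT111, CT115 and CT148. Between the domains they stayed at 0.

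Reversed log2 fold changes at 4 days were those of Relb in the smaller table (-0.18) and without CT074 and CT076 (-0.38), of Nfkbia (-0.0012) and Bcl3 (-0.063) without these libraries, and of Rel (0.40) and Rela (0.087) with the Y-linked covariate. That of Rel was 0.034 with 5 luminal libraries as 1 group. For the luminal domain, Bcl3 was at -0.044 with quantile normalization and -0.064 with upper-quartile scaling, and Relb at 0.081 with array weights. Between the domains, Nfkbia was at 0.056 with quantile normalization and 0.023 with upper-quartile scaling, Rel at 0.019 with the latter and 0.015 with array weights, and Tnf at 0.044 with upper-quartile scaling. The causes were not tested.

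Without each library in turn, Relb ranged from -0.14 to 0.25 at 4 days. In luminal tumors Bcl3 ranged from -0.76 to 0.31, Nfkbiz from -0.62 to 0.016 and Rel from -0.77 to 0.067. In the luminal domain Bcl3 ranged from -0.46 to 0.90, Nfkb2 from -0.54 to 0.11 and Relb from -0.28 to 0.34. Between the domains Bcl3 ranged from -0.69 to 0.64, Nfkb2 from -0.023 to 0.64, Nfkbia from -0.28 to 0.22, Rel from -0.50 to 0.26 and Tnf from -2.15 to 1.14. Other fold changes kept their sign but moved by over 1.5 times. At 4 days these were Bcl3 (0.11 to 0.56), Nfkb2 (0.24 to 0.57), Nfkbia (0.064 to 0.43), Nfkbiz (-0.44 to -0.13), Rel (-0.55 to -0.19), Rela (-0.10 to -0.018) and Tnfaip3 (0.59 to 1.33). In luminal tumors they were Nfkb2 (-0.55 to -0.019), Nfkbia (-1.15 to -0.49), Rela (-0.68 to -0.14), Tnfaip3 (-1.53 to -0.21) and Tnf (-1.55 to -0.13). In the luminal domain they were Nfkb1 (-0.48 to -0.25), Nfkbiz (-0.76 to -0.16), Rel (0.54 to 1.37), Rela (0.064 to 0.71), Tnf (-5.45 to -2.17) and Tnfaip3 (-1.19 to -0.29). Between the domains they were Nfkb1 (0.29 to 0.61), Nfkbiz (0.38 to 1.50), Rela (-0.78 to -0.065), Relb (-1.07 to -0.19) and Tnfaip3 (-0.30 to -0.0097). Scaling moved the median of all genes by over 0.1 in luminal tumors, from -0.098 to 0.023 with quantile normalization, and in the luminal domain, from 0.0097 to -0.14 with upper-quartile scaling. The columns of the other comparisons carry no replicate numbers, and no paired fit was made there.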
